A study of Mus musculus with 6 samples.

Results

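The cytosolic ribosomal protein genes were followed in clone 11 of mpkCCD, a line of immortalised collecting duct cells from mouse kidney cortex, with and without the vasopressin analog dDAVP. A gene belonged to the set when its platform symbol was Rpl or Rps followed by a digit, or was Rplp0, Rplp1, Rplp2 or Rpsa. The Rps6k kinases and symbols containing -ps were left out. Each gene was read on 1 probe set (a group of short probes against 1 transcript), the one with the highest mean over the 6 arrays among those naming that gene alone. The rule gave 47 genes of the 12364 that had such a probe set: 22 of the large subunit, 21 of the small subunit, the 3 paralogs Rpl22l1, Rpl7l1 and Rps27l, and Rps19bp1. The last encodes a binding partner of the Rps19 protein and no ribosomal protein, and it was kept because its symbol meets the rule.

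The cells had been polarized on membrane supports until the resistance across the layer was at least 5 kohm per cm2. They then received 0.1 nM dDAVP, an agonist of the V2 receptor, or vehicle for 5 days. Total RNA of 3 cultures per group was measured on Affymetrix Mouse Genome 430 2.0 arrays, 1 array per sample. All 6 samples are the same clone, and the labels call the 3 of a group biological replicates without saying whether passages or days differed, so the p-values rest on the spread of these cultures alone, which may be technical. The question put to this set was whether it stayed stable and high in signal over the long exposure.

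The ribosome makes protein from a small subunit, which holds the mRNA and reads its codons, and a large subunit, which joins the amino acids and passes the growing chain through an exit tunnel. Nearly every ribosomal protein is present once per ribosome, and the genes are transcribed at high and matched rates in growing cells. Their mRNAs carry a tract of pyrimidines at the capped end, the terminal oligopyrimidine tract. Through it mTOR signalling and the protein Larp1 adjust how much is translated, which can occur without a change in mRNA amount. An array measures only the mRNA. Because their mRNA is abundant and often steady, several of these genes, among them Rplp0, Rpl13a and Rps18, are widely used as reference genes.

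The tract is the sequence feature the set is known for. The windows below show runs of pyrimidines near the annotated start of genes described here. Whether such a run is the tract at the capped end of the mRNA was not tested. RefSeq windows of 300 bases (assembly GRCm38.p6) were found for 42 of the 47 genes, 49 windows in all. The stretch from 20 bases before to 30 bases after the annotated start was searched on the sense strand. A tract was counted as a C followed by at least 7 bases that were each C or T. It was found in 23 of 49 windows (46.9%), against 14.9% of all 32851 windows. Such tracts opened within 10 bases of the annotated start in 14 windows. That narrower count was not made over all windows, so it has no share to be read against. In the windows printed here the tract opened from position -7 (Rpl35) to position 4 (Rpl22l1), counted from the annotated start. In the sequences that follow, 50 bases of the sense strand are printed 5′ to 3′ and the capitals mark the longest such tract.
Rplp2 (chr7:141447631-141447680, plus strand): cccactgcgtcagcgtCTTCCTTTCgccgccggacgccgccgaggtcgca
Rpl13a (chr7:45128716-45128765, minus strand): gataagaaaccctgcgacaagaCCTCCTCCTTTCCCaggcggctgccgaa
Rpl35 (chr2:39005102-39005151, minus strand): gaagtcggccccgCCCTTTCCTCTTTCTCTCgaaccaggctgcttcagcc
Rpl27a (chr7:109519175-109519224, plus strand): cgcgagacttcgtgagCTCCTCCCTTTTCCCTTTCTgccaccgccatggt
Rps6 (chr4:86857338-86857387, minus strand): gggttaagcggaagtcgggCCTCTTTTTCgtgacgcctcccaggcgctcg
Rps10 (chr17:27635215-27635264, minus strand): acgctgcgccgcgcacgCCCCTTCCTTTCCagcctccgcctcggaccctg
Rps18 (chr17:33955636-33955685, minus strand): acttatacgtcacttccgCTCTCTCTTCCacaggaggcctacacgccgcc
Rps27 (chr3:90213619-90213668, minus strand): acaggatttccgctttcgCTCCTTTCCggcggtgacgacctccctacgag
Rpl22l1 (chr3:28805488-28805537, plus strand): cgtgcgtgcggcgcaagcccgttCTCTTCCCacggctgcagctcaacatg

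The windows printed above, of the paralog Rpl22l1 and of canonical genes, were picked from those with a tract. Other windows had none in this stretch, such as those of the paralog Rpl7l1 and of Rplp0, Rpsa, Rps19, Rpl12 and Rpl41. Over the whole window and both strands, the letters CCGGAAG, the core bound by ETS factors, were in 20 of 49 windows (40.8%) against 8.86% of all windows. The full cAMP response element TGACGTCA, which CREB binds, was in 2 windows, those of Rpl27a and Rps9 (4.08%), against 1.79% of all windows. TATAAA was in 6 (12.2% against 13.6%), and AAGATGGC, a YY1 match, in 4 (8.16% against 2.75%). The motifs can overlap the tract or each other, and a match describes letters in the window only.

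Aqp2, the water channel that vasopressin regulates, rose by 4.15 log2 units (limma adjusted p = 1.66e-07). The principal cell markers had signals from 3.74 (Elf5) to 13.34 (Krt8) log2 units, while Slc12a1 of the thick ascending limb (2.93), Cdh5 of endothelium (3.10), Ptprc of leukocytes (3.21) and Col1a1 of fibroblasts (3.63) were low. Other markers of cell types besides the principal cell were higher: Lrp2 of the proximal tubule measured 8.30. Atp6v1b1 of the intercalated cell measured 7.15 in vehicle and 7.48 in dDAVP (limma adjusted p = 0.153), and Cd68, a second leukocyte marker, 5.46 and 5.65 (limma adjusted p = 0.593), with groups that did not overlap in either. Groups with dDAVP higher and no overlap were seen in 8.07% of all probe sets. The part of these other cell types in the values of the ribosomal protein genes was not tested. Any 2 arrays correlated at 0.996 to 0.998 over 28225 probe sets, and array medians lay within 0.043 log2 units.

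Most of the set gave very strong signals, but 11 genes did not. The mean over the 6 arrays was above 12 log2 units for 35 of 47 genes and above 13 for 25, against a median of 6.72 and a 99th percentile of 12.17 over all probe sets. The rule takes the brightest probe set of a gene, so this is a description. All genes read in that way had a median of 7.66, and the 53 probe sets of the members that were not taken had a median of 11.24. Rpl41, the smallest ribosomal protein, had the highest signal at 13.99, followed by Rpl37a, a large subunit protein, at 13.72 and Rps3a1, a small subunit protein, at 13.69. Of the 100 brightest probe sets of the arrays, 67 named a ribosomal protein gene of this rule, alone or with other genes. Signals of different probe sets depend on their probes as well as on the transcript, so these values do not rank the genes by mRNA amount. The highest value in the table was 14.12, and whether signals this close to it still follow the mRNA in proportion was not tested.

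The 11 genes at or below 10 log2 units were Rpl12, Rpl14, Rpl27a, Rpl37, Rpl39, Rpl7l1, Rps6, Rps16, Rps25, Rps27 and Rps19bp1. For the first 5 of these and for Rps6, Rps16, Rps25 and Rps27, 9 genes in all, the arrays also carry a probe set that names the gene together with pseudogenes or other loci, and the brightest such probe set had a signal of 12.80 (Rpl14) to 13.70 (Rps6). Rps16, whose protein reaches towards the tRNA in the decoding centre, is the clearest case: its only probe set without another name measured 2.87, below the median of all probe sets, while one that also names Rps16-ps2 measured 13.56. On the chosen probe sets, 36 of 47 genes were among the brightest 10% of all probe sets, so the description as a high-signal set did not hold for the other 11.

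**Figure D1:**
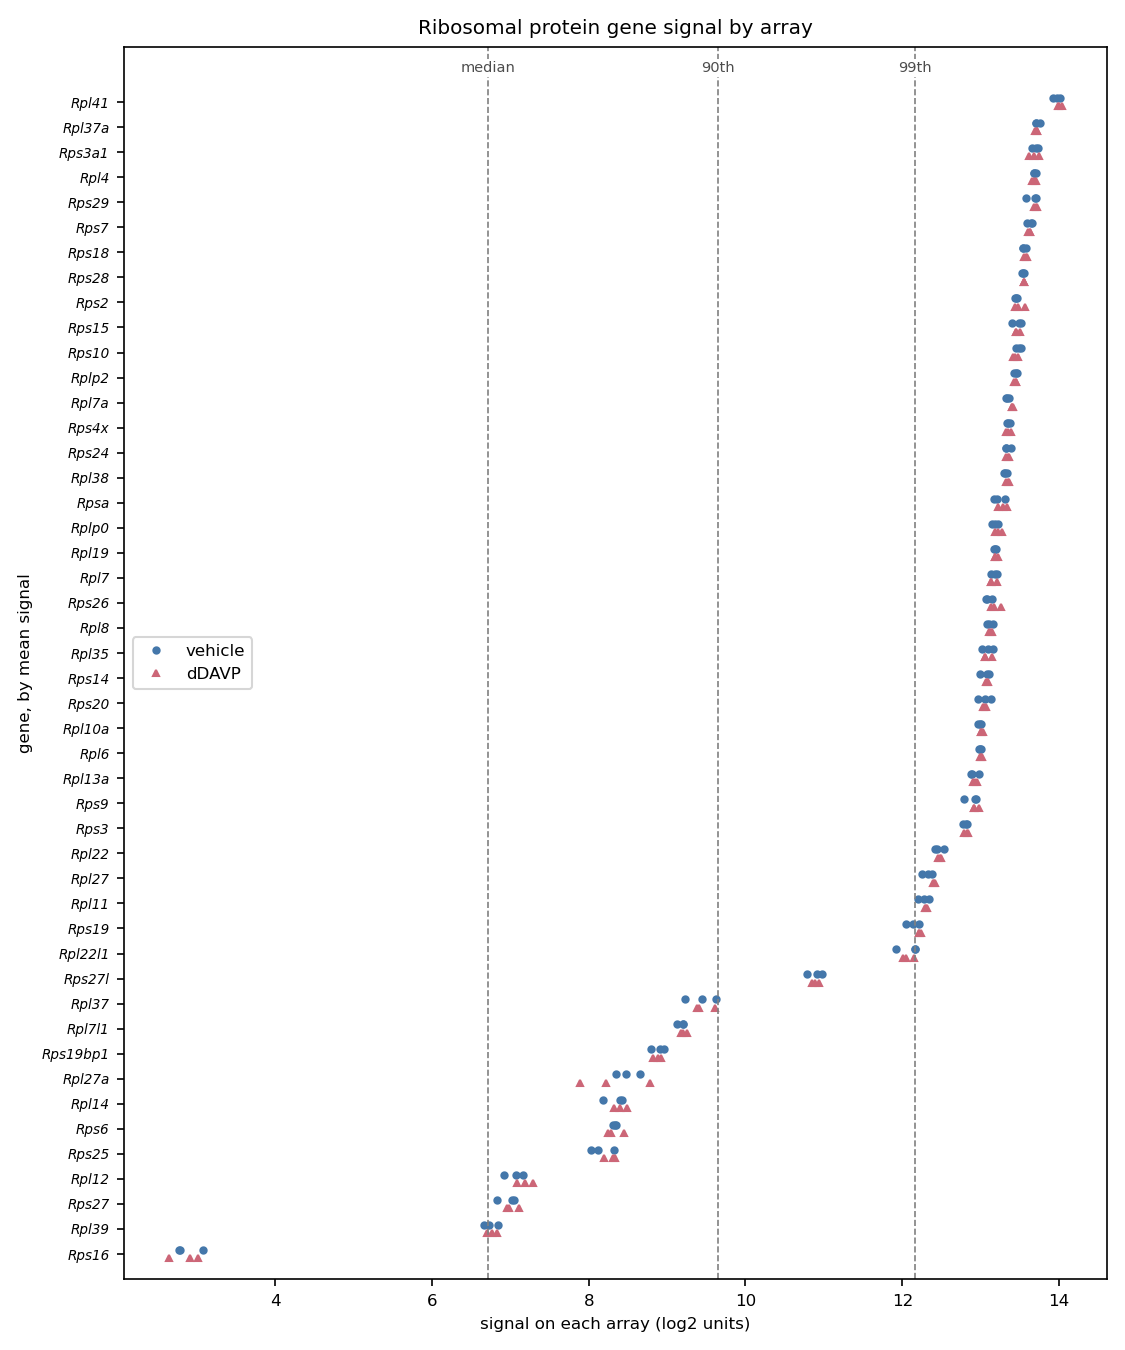
Signal of each of the 47 genes on each array in log2 units, ordered by mean; circles are the 3 vehicle arrays and triangles the 3 dDAVP arrays, and dashed lines mark the median and the 90th and 99th percentiles of all probe sets. In 35 genes all arrays lie near or above 12, and the groups overlap in all genes but Rpl27 and Rpl7a.

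No gene of the set passed a threshold for a change with dDAVP. In limma, 0 of 47 passed at a Benjamini-Hochberg adjusted p below 0.05, where 0.216% of all 28225 probe sets passed. At an unadjusted p below 0.05 the count was also 0, where 7.98% of all probe sets had such a value. The lowest unadjusted p in the set was 0.160 (Rpl12, adjusted p = 0.783). In bulk RNA, fewer cells and less RNA per cell cannot be told apart, and each value is relative to the rest of its array. Strong signals as such come with few calls here: of the 2823 brightest probe sets, the top 10% by level, 0 passed the adjusted threshold in limma and 4.32% had an unadjusted p below 0.05. The median log2 change was 0.014 in the set, 0.012 over all 12364 genes read on 1 probe set each in the same way, and 0.0039 over all probe sets. The median size of a change was 0.021 in the set, 0.058 over those genes, 0.064 over all probe sets and 0.041 over the brightest 10%. It was 0.025 over 6 genes listed as elongation factors and 0.030 over 31 initiation factor genes, so a small size was not particular to this set.

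An interval says more than a missed threshold. For 42 of 47 genes the 95% interval of the change lay wholly inside 1.2-fold in either direction (0.26 log2 units). This held for 51.9% of all probe sets, for 61.8% of all genes read on 1 probe set each and for 83.0% of the brightest 10%. The count depends on the scaling of the arrays: it was 35 with scaling to the poly-A controls and 0 with scaling to the hybridisation controls, which put the median change of all probe sets at 0.15. All 35 genes above 12 log2 units met it. The 5 that did not were Rpl12, Rpl27a, Rpl37, Rps16 and Rps25, each read on a probe set at or below 10. Inside 1.5-fold lay 46 genes, all but Rpl27a, and inside 1.1-fold only 7. The moderated test draws each gene's spread towards a common SD of 0.093 log2 units, and 39 of the 47 genes had an SD of their own below that.

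**Figure D2:**
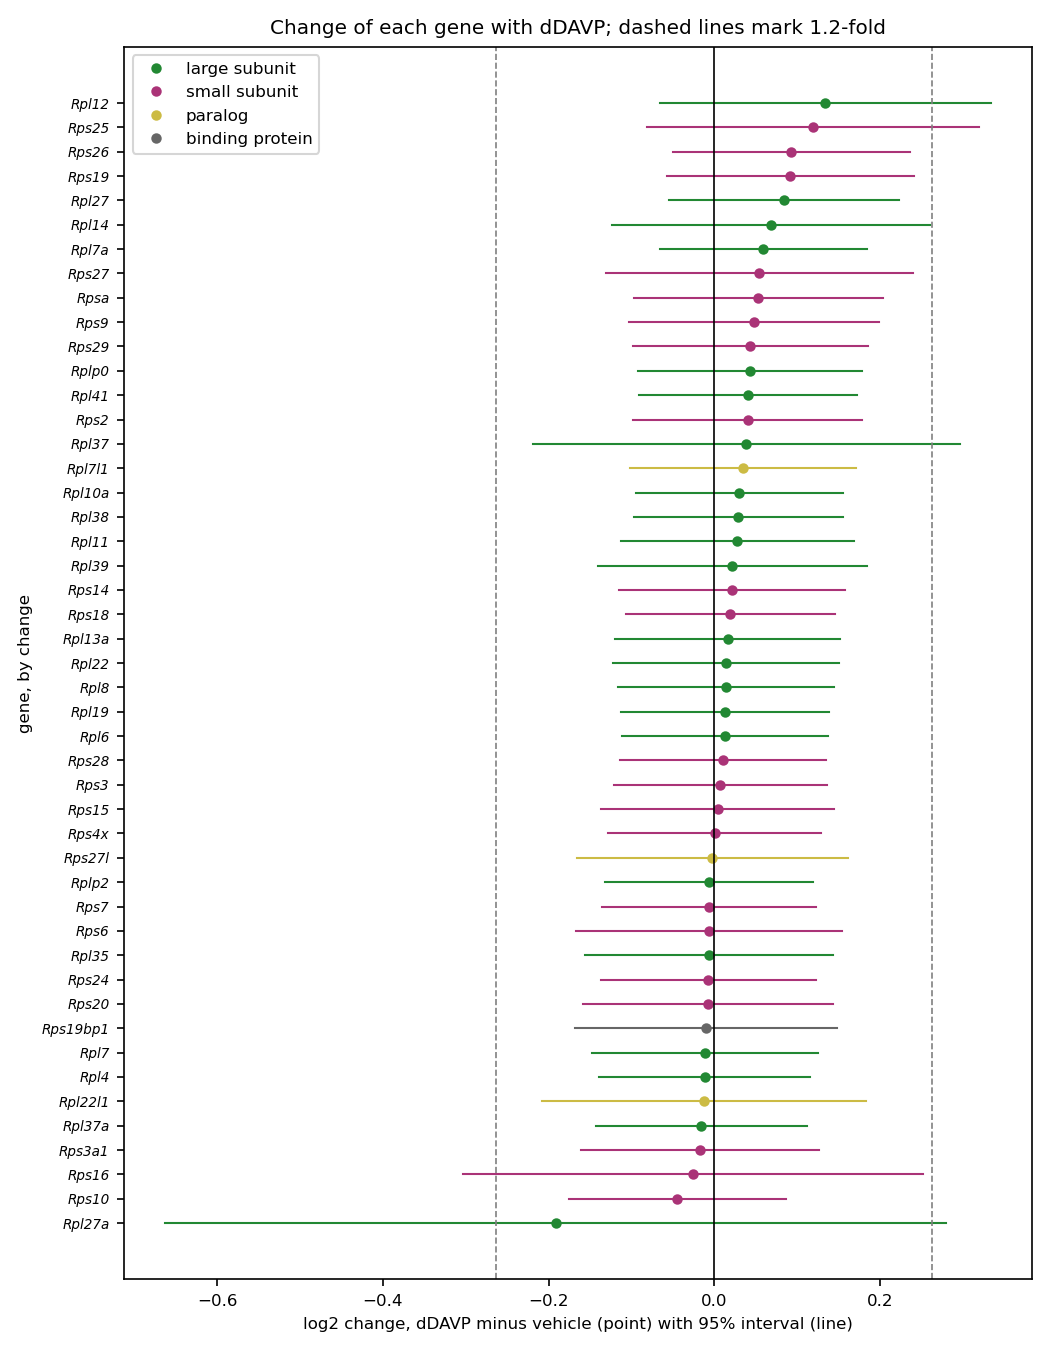
Log2 change of each gene with dDAVP (points) and its 95% interval from limma (lines), coloured by class; dashed lines mark 1.2-fold. All 47 intervals include 0, and 42 lie between the dashed lines.

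In the large subunit, 0 of 22 genes passed in limma (0 at an unadjusted p below 0.05), 16 changes were above 0 and 6 below, and the median was 0.019 log2 units. The lateral stalk recruits the elongation factors to the ribosome. Its anchor Rplp0 measured 13.22, 13.14 and 13.19 log2 units in vehicle replicates 1 to 3 and 13.27, 13.19 and 13.22 in dDAVP replicates 1 to 3. The groups overlapped, with a change of 0.043 ± 0.058 (SE, adjusted p = 0.923). Rplp2, an acidic protein at the tip of the stalk, measured 13.47, 13.46 and 13.42 in vehicle and 13.43, 13.45 and 13.45 in dDAVP, a change of -0.0062 ± 0.054 with an interval from -0.13 to 0.12. Its partner Rplp1 was reached only by a probe set that also names Gm13777, which measured 13.34 ± 0.047 in vehicle and 13.42 ± 0.031 in dDAVP (SD, n = 3, limma adjusted p = 0.818).

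Rpl12, at the base of the stalk, had the largest positive change of the 47. It measured 7.07, 6.92 and 7.17 in vehicle and 7.29, 7.18 and 7.08 in dDAVP, so that the lowest dDAVP array lay inside the vehicle range, and the change was 0.13 ± 0.086 (interval -0.066 to 0.33). The brighter probe set naming Rpl12 with other loci, at 12.94, changed by -0.0051 ± 0.055.

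Rpl11, which with Rpl5 and the ribosomal 5S RNA can bind Mdm2 and so links ribosome assembly to p53, measured 12.21, 12.27 and 12.34 in vehicle and 12.29, 12.30 and 12.32 in dDAVP (change 0.028 ± 0.061, adjusted p = 0.955). The dDAVP arrays sat inside the vehicle range. Rpl13a, which also serves in a complex that silences inflammatory mRNAs, measured 12.88, 12.88 and 12.97 against 12.96, 12.93 and 12.90 (change 0.016 ± 0.059). Of the 4 measured genes of the tunnel exit, Rpl19, Rpl22, Rpl35 and Rpl39, none passed (0 in limma, 0 at an unadjusted p below 0.05). Their changes ran from -0.0068 to 0.022. Rpl39 lies in the tunnel wall, and it measured 6.66, 6.84 and 6.72 in vehicle and 6.70, 6.77 and 6.83 in dDAVP on its dim probe set.

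Among the brightest large subunit genes, Rpl41 measured 13.93, 14.01 and 13.97 in vehicle and 13.99, 14.00 and 14.04 in dDAVP (change 0.041 ± 0.057). Rpl37a measured 13.71, 13.70 and 13.76 against 13.72, 13.72 and 13.69 (change -0.016 ± 0.055). Both sets of arrays overlapped. Only Rpl27 and Rpl7a, 2 of the 47 genes (4.26% of the set), had groups that did not overlap. In both the dDAVP arrays were higher, which was the case for 8.07% of all probe sets, and in 0 genes were they lower, which was the case for 5.35%. Both genes were picked out once their values had been seen. Rpl27 measured 12.33, 12.25 and 12.38 in vehicle and 12.39, 12.41 and 12.41 in dDAVP (change 0.084 ± 0.060, adjusted p = 0.813). Rpl7a measured 13.32, 13.37 and 13.34 against 13.40, 13.41 and 13.40 (change 0.059 ± 0.054, adjusted p = 0.867). The gap between the groups was below 0.04 log2 units in each.

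The widest spread in the set was that of Rpl27a, a large subunit protein. It measured 8.48, 8.34 and 8.65 in vehicle and 8.78, 7.89 and 8.22 in dDAVP, so the dDAVP arrays held both the highest and the lowest values. The change of -0.19 ± 0.20 was the most negative of the 47 and its interval ran from -0.66 to 0.28. Without dDAVP replicate 2 it was 0.011, and without dDAVP replicate 1 it was -0.43 (adjusted p = 0.515). The probe set at 12.97 that names Rpl27a with other loci changed by 0.026 ± 0.055. Rpl37 measured 9.44, 9.22 and 9.62 against 9.61, 9.39 and 9.41 (change 0.039 ± 0.11), and the probe set at 13.36 that names it with Rpl37rt changed by 0.0096 ± 0.058.

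In the small subunit, 0 of 21 genes passed in limma (0 at an unadjusted p below 0.05), 14 changes were above 0 and 7 below, and the median was 0.010 log2 units. Rpsa, which is also known as a laminin receptor, measured 13.17, 13.31 and 13.21 in vehicle and 13.22, 13.29 and 13.34 in dDAVP (change 0.053 ± 0.065, adjusted p = 0.911). The highest array of each group was within 0.03 log2 units of the other. Rps6, the substrate of the S6 kinases downstream of mTOR, measured 8.31, 8.33 and 8.35 in vehicle and 8.45, 8.25 and 8.29 in dDAVP. The vehicle arrays lay between the dDAVP arrays, and the change was -0.0067 ± 0.069 on this dim probe set. The brightest probe set naming Rps6 with other loci, at 13.70, changed by 0.062 ± 0.055. Another, which names Rps6 and Rps6-ps4, changed by -0.28. The 3 genes at the mRNA entry channel, Rps2, Rps3 and Rps9, had changes from 0.0069 to 0.048 with 0 passing.

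Rps19 is the gene most often mutated in Diamond-Blackfan anaemia, an inherited failure of red cell production caused by ribosomal protein genes. It measured 12.04, 12.13 and 12.22 in vehicle and 12.22, 12.21 and 12.24 in dDAVP (change 0.092 ± 0.064, adjusted p = 0.811). The dDAVP arrays lay close together near the highest vehicle array, and the groups overlapped. Of the 18 listed genes of this anaemia 11 were measured, 0 passed and 0 had an unadjusted p below 0.05, with changes from -0.045 to 0.093 and a median of 0.028. The upper end was Rps26, a protein that touches the mRNA as it leaves the ribosome. It measured 13.08, 13.06 and 13.14 against 13.13, 13.18 and 13.26 (change 0.093 ± 0.062, adjusted p = 0.797). The lower end was Rps10, which measured 13.51, 13.46 and 13.49 against 13.48, 13.44 and 13.41 (change -0.045 ± 0.056, adjusted p = 0.916). The groups overlapped in both.

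Rps25, which many viral and some cellular internal entry sites need for initiation, measured 8.03, 8.12 and 8.32 in vehicle and 8.19, 8.31 and 8.33 in dDAVP (change 0.12 ± 0.087, interval -0.082 to 0.32). Without vehicle replicate 3 the change was 0.20 (adjusted p = 0.666) and its unadjusted p fell below 0.05. The probe set at 12.81 that names Rps25 with other loci changed by 0.035 ± 0.058. Rps3a1 measured 13.70, 13.66 and 13.73 against 13.75, 13.68 and 13.61 (change -0.017 ± 0.062), and its dDAVP arrays reached beyond the vehicle range on both sides. Rps16 had 2.77, 3.09 and 2.79 against 3.01, 2.92 and 2.64 (change -0.026 ± 0.12), near the floor of the arrays, where the lowest value was 2.15. The brightest probe set naming Rps16 with other loci changed by -0.0042 ± 0.056.

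The paralogs differ from their partners in where they are used. Rpl22l1 can take the place of Rpl22, Rps27l is a p53 target close in sequence to Rps27, and Rpl7l1 is related to Rpl7. None of the 3 passed (0 in limma, 0 at an unadjusted p below 0.05). Rpl22l1 measured 12.16, 11.92 and 12.16 in vehicle and 12.15, 12.01 and 12.04 in dDAVP (change -0.013 ± 0.084), while Rpl22 changed by 0.014. Rps27l measured 10.92, 10.78 and 10.98 against 10.94, 10.84 and 10.89 (change -0.0025 ± 0.070). Vehicle replicate 2 was the lowest array of both. Rps27, read on a dim probe set, measured 6.83, 7.04 and 7.02 against 7.11, 6.96 and 6.98 (change 0.054 ± 0.080). Rpl7l1 measured 9.20, 9.12 and 9.21 against 9.25, 9.18 and 9.20 (change 0.035 ± 0.059). Rps19bp1 changed by -0.010 ± 0.068.

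No change passed on the probe sets that the rule passed over either. The 47 genes had 100 probe sets naming 1 gene, and another 107 named a gene of the rule together with others. These 107 include 31 symbols of the rule that no probe set names alone, such as Rpl3, Rpl5 and Rps12. Of all 207, 0 passed in limma and 2 had an unadjusted p below 0.05, against 7.98% of all probe sets. The 2 were picked out here once their values had been seen. A dimmer Rps3 probe set measured 7.02, 7.09 and 7.05 in vehicle and 7.38, 7.20 and 7.18 in dDAVP (change 0.20 ± 0.071, adjusted p = 0.525), while the brightest for Rps3, at 12.81, changed by 0.0069 ± 0.055. A probe set naming Rpl24 and Gm9385 measured 7.22, 7.06 and 7.18 against 6.97, 6.79 and 7.04 (change -0.21 ± 0.083, adjusted p = 0.569).

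Probe sets of 1 gene often differed in sign. Of the 22 genes with at least 2 probe sets, 18 had changes on both sides of 0. Rps10 had 6 probe sets with signals from 5.38 to 13.47, and the dimmest changed by 0.16 ± 0.077 while the brightest changed by -0.045 ± 0.056. Rps18 also had 6, from 3.62 to 13.57, with changes of 0.20 ± 0.12 on one at 5.27 and 0.019 ± 0.054 on the brightest. Rps18 was not among the genes named by rule. The larger changes were all on dim probe sets, where the spread between arrays is wider as well. The median SD within groups was 0.040 log2 units for the 35 genes above 12 and 0.11 for the 11 at or below 10, against 0.098 over all probe sets and 0.060 over the brightest 10%.

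**Figure D3:**
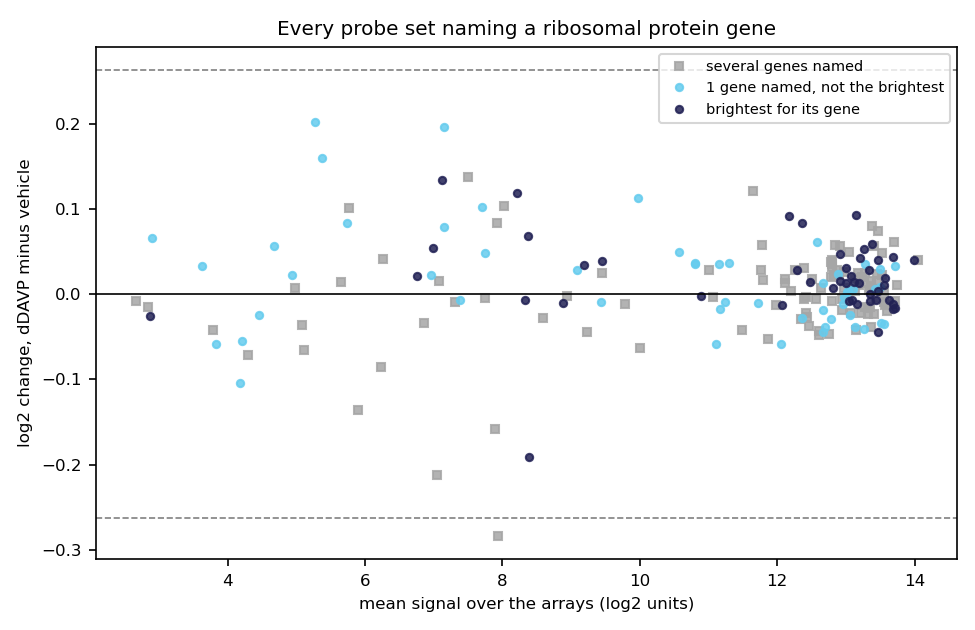
Log2 change against mean signal for all 207 probe sets that name a ribosomal protein gene of the rule; squares name several genes and circles 1 gene, and dashed lines mark 1.2-fold. Changes beyond 0.15 in size are seen only at signals below 9, and 1 probe set, which names Rps6 and Rps6-ps4, lies past a dashed line at -0.28.

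The mean over the set differed between groups by less than the spread within them. The mean signal of the 47 genes was 11.81, 11.81 and 11.87 log2 units in vehicle replicates 1 to 3 and 11.87, 11.83 and 11.85 in dDAVP replicates 1 to 3. The group means were 11.83 ± 0.036 and 11.85 ± 0.023 (SD, n = 3), a difference of 0.019 (exact two-sided permutation p = 0.5, where the smallest p that 3 against 3 allows is 0.1). Vehicle replicates 1 and 2 were low for most of the set. Of the 47 genes 22 had their lowest value on vehicle replicate 1 and 14 on vehicle replicate 2, while 15 had their highest on vehicle replicate 3 and 12 on dDAVP replicate 3. The mean of vehicle replicate 3 lay within the range of the dDAVP arrays, and without it the difference in the mean was 0.040 (exact p = 0.2).

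The difference between the subunits did not separate the groups. The mean signal of large subunit genes minus that of small subunit genes was -0.0021, -0.060 and -0.013 in vehicle and -0.010, -0.056 and -0.024 in dDAVP (difference -0.0049, exact p = 0.8). Replicate 2 of both groups had the lowest value. The vehicle arrays were the more spread out: 33 of 47 genes had a larger SD in vehicle than in dDAVP, as did 55.1% of all probe sets and 65.8% of the brightest 10%. The steadiest gene within groups was Rps28, picked out once its values had been seen, at 13.53, 13.54 and 13.56 in vehicle and 13.55, 13.55 and 13.56 in dDAVP.

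**Figure D4:**
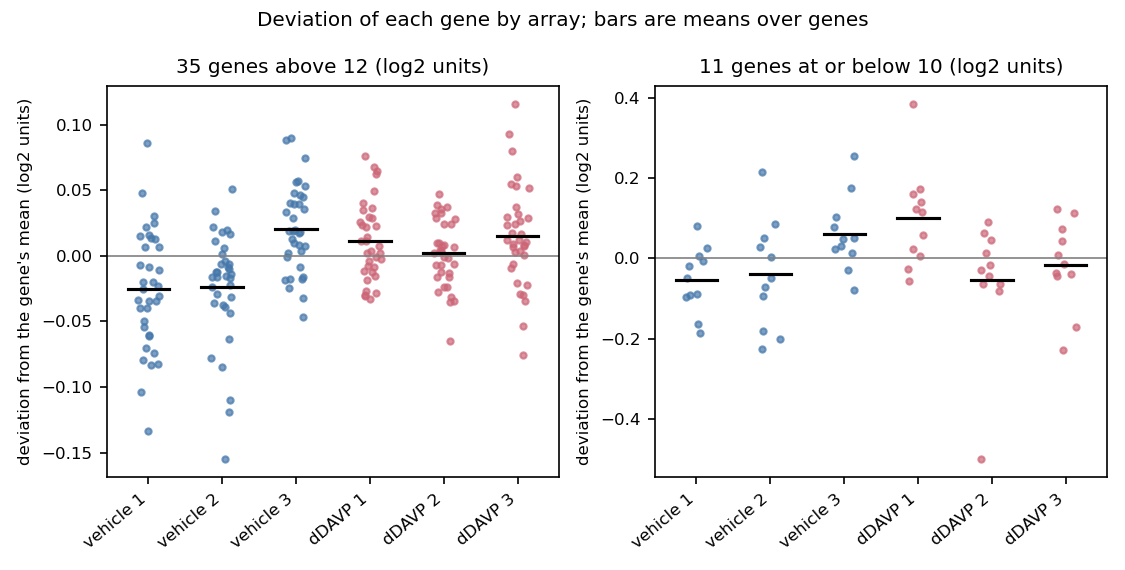
Deviation of each gene from its own mean over the 6 arrays in log2 units, for the 35 genes above 12 (left) and the 11 at or below 10 (right, with a wider axis); points are genes and bars are means over genes. On the left the means of vehicle replicates 1 and 2 are below 0 and the other 4 arrays are above it.

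A change above 0 was seen in 31 of 47 genes. It was seen in 51.7% of all probe sets and 55.4% of all genes read on 1 probe set each. The count of 31 depended on the scaling of the arrays. Scaled to the poly-A controls, transcripts added to the RNA before labelling, 19 of 47 were above 0. The median was then -0.0097, against -0.020 over all probe sets. Scaled to the hybridisation controls, added after labelling, 46 were above 0, with a median of 0.16 against 0.15 over all probe sets. Such scaling shifts every log2 change by the same amount. The gap of 0.010 between these medians is therefore the same before and after it. The hybridisation controls themselves measured 10.61 ± 0.080 in vehicle and 10.46 ± 0.066 in dDAVP (SD, n = 3, exact p = 0.1), and the poly-A controls 8.10 ± 0.10 and 8.12 ± 0.019 (exact p = 0.8). The arrays also carry probe sets for 18S ribosomal RNA, the RNA of the small subunit. Whether their signal follows the amount of this RNA was not tested. Its 3′ probe set measured 7.70 ± 0.11 and 7.73 ± 0.30 (SD, n = 3, exact p = 0.8), its middle one 7.69 ± 0.45 and 7.62 ± 0.58 (exact p = 0.9), and its 5′ one 7.93 ± 0.20 and 8.12 ± 0.44 (exact p = 0.5). RNA quality, read as the log2 signal of the 3′ probe set of Actb minus that of its 5′ probe set, was 0.70 ± 0.017 and 0.69 ± 0.021 (exact p = 0.6), and the part of array quality in the pattern by array was not tested.

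In 5 other lists of translation genes no gene passed either. None of 6 measured genes listed as elongation factors passed (0 in limma, 0 at an unadjusted p below 0.05, median change 0.016). The 6 include Tpt1, which is not an elongation factor. The genes of this list with the lowest p were the exchange factor subunits Eef1d (0.074 ± 0.066) and Eef1b2 (0.053 ± 0.063). Of 31 initiation factor genes 0 passed and 0 had an unadjusted p below 0.05, with a median of 0.021. Eif4g2, a scaffold for cap-independent initiation, was at -0.14 ± 0.082 and Eif3i, a subunit of the factor that binds the small subunit, at 0.10 ± 0.064. Fau, which encodes a small subunit protein fused to a ubiquitin-like protein and lies outside the rule, measured 13.56 ± 0.036 in vehicle and 13.55 ± 0.022 in dDAVP (SD, n = 3, limma adjusted p = 0.989).

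Of 41 ribosome biogenesis genes 0 passed in limma and 1 had an unadjusted p below 0.05, with a median of 0.019. Over all probe sets 7.98% had such a p. The 1 gene was Wdr12, which processes large subunit RNA (0.18 ± 0.065, adjusted p = 0.525), followed by the RNA polymerase I subunit Polr1e (0.16 ± 0.088). Of 20 genes of mTOR and MYC control 0 passed and 1 had an unadjusted p below 0.05, with a median of 0.023. That was Myc itself, a transcription factor that drives ribosome production. It measured 9.35 ± 0.052 in vehicle and 9.61 ± 0.092 in dDAVP (SD, n = 3), with groups that did not overlap, and missed the threshold (0.26 ± 0.069, SE, limma adjusted p = 0.351). Groups with dDAVP higher and no overlap were seen in 8.07% of all probe sets. Ddit4, an inhibitor of mTOR, was at 0.17 ± 0.085 (adjusted p = 0.681).

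The mitochondrial ribosome is built from a separate set of nuclear genes. Of its 76 measured genes 0 passed in limma and 1 had an unadjusted p below 0.05, against 7.98% of all probe sets. Above 0 were 59 changes (77.6%) and below it 17, where 55.4% of all genes read on 1 probe set each were above 0. Such counts depend on the scaling of the arrays, as in the cytosolic set. The median was 0.037 against 0.014 in the cytosolic set and 0.012 over all genes read on 1 probe set each. The lowest p were those of Mrps6 (0.18 ± 0.067, adjusted p = 0.536) and Mrpl17 (0.12 ± 0.056, adjusted p = 0.636). Whether the mitochondrial and cytosolic sets differ was not tested.

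**Figure D5:**
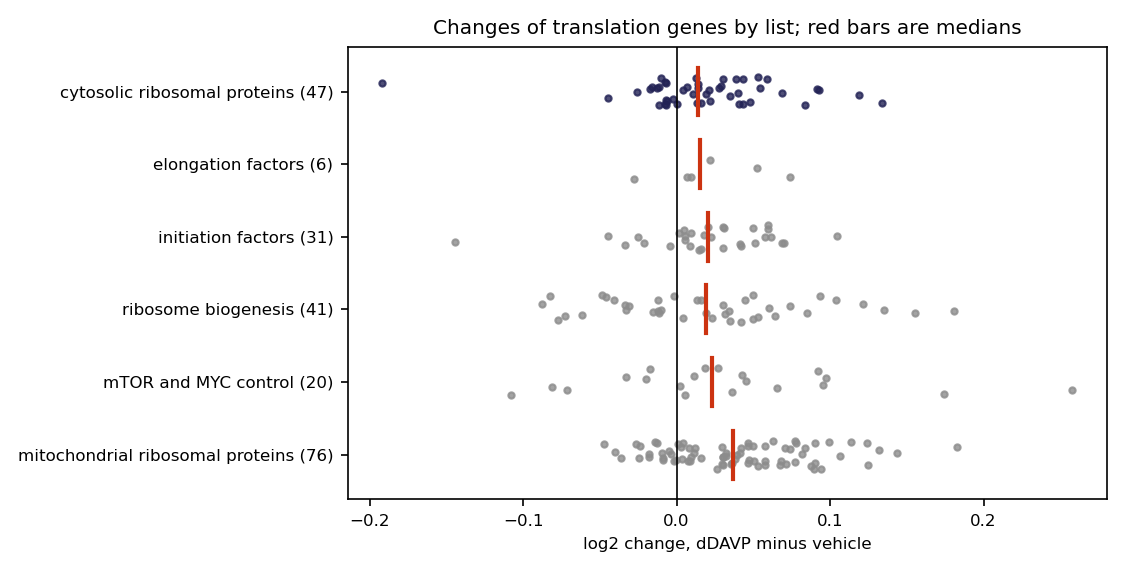
Log2 change with dDAVP of each measured gene in the cytosolic set and in 5 other lists of translation genes; points are genes and red bars are medians. All medians lie between 0.014 and 0.037, and single genes run from -0.19 (Rpl27a) to 0.26 (Myc).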

How the data were processed

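Each sample was 1 Affymetrix array of total RNA. The authors deposited log2 signals, 1 per probe set and array. Affymetrix Expression Console 1.1, RMA and MAS5 appear in the submitters' processing notes. Which of them produced the values is not stated there. The values were used as deposited. Gene names of probe sets were those of GEO's platform annotation, and all 47 genes matched a RefSeq gene by Entrez ID with 0 changes of symbol. Promoter windows came from RefSeq (GRCm38.p6), which is not a build stated for the arrays.

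dDAVP was compared with vehicle in limma 3.58.1 under R 4.3.3 (lmFit, eBayes, no block, 4 residual degrees of freedom) over 28225 probe sets, leaving out 62 control probe sets, with Benjamini-Hochberg adjustment over all of them. Measures with 1 value per array had an exact permutation test. The code was tested on simulated data. Figures used matplotlib 3.10.9. No read depth applies, and the number of arrays limits the precision. Genes named were those with the 4 largest changes in each direction, the 3 highest and 3 lowest signals, the 3 widest spreads, the paralogs, and Rplp0, Rplp1, Rplp2, Rpsa, Rps6, Rpl5, Rpl11, Rps19 and Rpl13a. In each other list they were those with the 2 lowest p-values. Other genes were named for their role, class or probe sets, or are marked in the text. Rpl5 was reached only by probe sets that name other genes too, and its values are not given. The genes and lists were chosen with earlier results of these data known. Alternatives covered scaling, filters, priors, the replicate block, left-out arrays and the choice of probe set.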

Additional observations from a re-analysis of the deposited data

How the results depend on the processing

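The number of genes that passed the adjusted threshold was 0 under every alternative run. These included 2 normalizations, scaling to 2 kinds of control, a filter on dim probe sets, a prior that was trended or robust, and a replicate block. They also included each array left out, 2 other choices of probe set, leaving out the paralogs and Rps19bp1, and a threshold of 0.10. Scaling to the poly-A controls left 35 genes inside 1.2-fold. Scaling to the hybridisation controls gave 9 genes at an unadjusted p below 0.05, 0 with an interval inside 1.2-fold, a median change of 0.16 and a difference in mean signal of 0.17, with the median of all probe sets at 0.15. With a margin of 1.1-fold, 7 genes lay inside. Leaving out 1 array gave 0 to 1 genes at an unadjusted p below 0.05 (Rps25 without vehicle replicate 3, Rpl27a without dDAVP replicate 1), 37 to 41 inside 1.2-fold, medians of 0.0026 to 0.034 and differences in mean signal of 0.0074 to 0.040. With the replicate block 41 genes lay inside 1.2-fold and 24 of all probe sets passed, against 61 without it. Deviations of same-numbered arrays correlated at r = 0.20, 0.046 and -0.052 over all probe sets and at 0.15, 0.48 and 0.054 over the 47 genes for replicates 1, 2 and 3. Not every pair was above 0.1 on either, so the numbers were not taken to pair the arrays. Of 351 values of 22 named genes under alternatives, 327 moved by less than 1 SD and 0 passed the threshold. The priors, the replicate block and the filter leave a log2 change as it was, so many of the 327 could not move. Most of the 24 that moved did so under scaling to the hybridisation controls. When a gene's probe sets were averaged, Rps10 moved from -0.045 to 0.027 and Rpsa from 0.053 to -0.026. Signals near the top of the range, and probe sets shared with pseudogenes, limit what the arrays can show.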
